A study of Mus musculus with 2 samples.

Results

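A total of 5 mouse genes of the detoxification and oxidative stress response were followed in liver RNA. They are Gstm3 and Gstm6 (mu class glutathione transferases), Ephx1 (microsomal epoxide hydrolase), Akr1b8 (an aldo-keto reductase) and Hmox1 (heme oxygenase 1). A member was any row of the deposited value table whose platform annotation gave exactly 1 symbol from this set. All 5 genes had 1 such row each, among 1750 genes that could be named from the 5082 rows. The set had been chosen with earlier results of these data known, so the directions below are descriptions of 2 arrays.

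The saline pool held liver RNA of 3 C57BL/6J mice, a common inbred strain, and the pool on parenteral nutrition (PN), in which all nutrients enter through a vein, held liver RNA of another 3. All mice were wild type, were 6 to 10 weeks old and carried a jugular vein catheter placed on day 1, with saline infused from day 2. From day 3 the PN mice received PN and had no food, whereas the control mice stayed on saline and kept their food, and liver was taken on day 11 after 8 days. Infusion and loss of food thus differed together. Each pool went on 1 array, so no difference has a replicate check and no p-value was computed. Each value is a log2 RMA level (a background-corrected, normalized summary of probe signals). Levels spanned 1.32 to 12.5 in the saline pool and 1.38 to 11.8 in the PN pool. The authors kept only rows with a difference of 1.5-fold or more. A gene that has no value may have differed by less, may carry no name or may not have been measured. None of 10 hepatocyte markers had a value, and the liver label could not be checked through them in a table cut this way.

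Glutathione transferases attach the tripeptide glutathione to reactive electrophiles, and epoxide hydrolase opens epoxides with water, so both make such compounds easier to excrete. Many of these genes are switched on by the transcription factor NRF2, which the adaptor KEAP1 holds at a low level until electrophiles or oxidants modify it. NRF2 binds antioxidant response elements as a dimer with a small MAF protein. Heme oxygenase breaks heme down to biliverdin, iron and carbon monoxide. In liver it is known from macrophages that clear red blood cells and as a general stress gene, besides being a target of NRF2.

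The promoters of the measured members are shown because the group is defined in part by NRF2, a factor with a known binding motif. RefSeq windows (GRCm38.p6) were available for 4 of the 5 members. Each window below is the 250 bases before the most upstream annotated start, read 5′ to 3′ on the strand of the gene. Capitals mark matches to any of 3 motifs, searched on both strands. They are the core of the antioxidant response element TGACNNNGC, a loose form of the AP-1 site, TGANTCA, and the GC box GGGCGG. N is any base, whereas the AP-1 site proper has C or G in the middle. The first 2 motifs can overlap each other, and no such overlap occurred in these windows. Ugdh, UDP-glucose dehydrogenase, is added as a gene of the same pathway whose window holds the element core. The windows lie at chr3:107969175-107969424 (minus strand) for Gstm3, chr3:107953467-107953716 (minus) for Gstm6, chr1:181017570-181017819 (minus) for Ephx1, chr6:34353896-34354145 (plus) for Akr1b8 and chr5:65435843-65436092 (minus) for Ugdh.
Gstm3: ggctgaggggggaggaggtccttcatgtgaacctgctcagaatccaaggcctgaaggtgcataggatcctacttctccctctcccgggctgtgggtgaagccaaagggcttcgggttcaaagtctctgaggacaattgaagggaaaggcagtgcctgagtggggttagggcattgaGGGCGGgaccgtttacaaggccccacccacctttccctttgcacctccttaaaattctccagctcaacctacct
Gstm6: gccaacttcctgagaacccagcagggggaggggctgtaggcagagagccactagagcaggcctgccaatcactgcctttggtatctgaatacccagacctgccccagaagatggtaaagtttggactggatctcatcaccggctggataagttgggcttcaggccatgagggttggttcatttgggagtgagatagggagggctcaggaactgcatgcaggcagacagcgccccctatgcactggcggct
Ephx1: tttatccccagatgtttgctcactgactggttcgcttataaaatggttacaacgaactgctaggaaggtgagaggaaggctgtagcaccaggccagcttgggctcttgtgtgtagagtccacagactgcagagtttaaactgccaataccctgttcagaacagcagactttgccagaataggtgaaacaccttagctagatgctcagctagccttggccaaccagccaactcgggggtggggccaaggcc
Akr1b8: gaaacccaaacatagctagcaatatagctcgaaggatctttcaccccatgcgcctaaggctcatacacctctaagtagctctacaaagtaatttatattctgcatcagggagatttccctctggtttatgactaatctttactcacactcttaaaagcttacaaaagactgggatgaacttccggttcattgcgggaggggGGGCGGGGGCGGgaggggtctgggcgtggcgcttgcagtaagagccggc
Ugdh: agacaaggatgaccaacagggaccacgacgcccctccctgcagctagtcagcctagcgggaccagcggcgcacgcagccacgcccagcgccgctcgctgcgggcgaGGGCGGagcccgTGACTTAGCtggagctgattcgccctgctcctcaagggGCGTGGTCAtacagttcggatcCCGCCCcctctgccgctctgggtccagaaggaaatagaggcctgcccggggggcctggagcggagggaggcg

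None of the 4 member windows held TGACNNNGC or TGANTCA. The Gstm3 window held 1 GC box, 74 bases before the start, and the Akr1b8 window held 2, at 49 and 43 bases. The Ugdh window held 2 element cores, 1 on each strand, at 132 and 94 bases. Of all 32851 windows of this length, 10.2% held the element core, 6.75% TGANTCA with any middle base and 32.7% the GC box. Counted per gene over all its windows, the shares were 11.5%, 7.82% and 35.4%. Among the pathway genes described below that had a window (29 of 33), the element core was found for Ugdh, Maff and Gadd45g. Maff is a small MAF gene and Gadd45g a stress gene. TGANTCA was found for Gstp1, Osgin1, Aox1, Ugt2b1, Ugt2b35 and Ugt2b38. Its middle base was C or G for Gstp1, Osgin1 and Aox1, and A or T for the Ugt2b genes. The GC box was found for 15 of the 29. These matches describe the letters of a short window, and elements farther from the start were not searched.

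The conjugation and hydrolysis genes Gstm3, Gstm6 and Ephx1 were lower in the PN pool, and Hmox1 and Akr1b8 were higher. The level of Gstm3 was 8.98 in saline and 7.65 in PN, a difference of -1.33 (2.51-fold lower in PN). Gstm6, which lies next to Gstm3 in the Gstm cluster, had levels of 6.31 and 5.46, a difference of -0.85 (1.80-fold lower). Ephx1 had levels of 9.29 and 8.41, a difference of -0.88 (1.84-fold lower). These 3 genes lay well above the level taken as background, 3.26, which is the median of the higher level of 133 chemosensory receptor genes. In a bulk sample, fewer cells of a type and less RNA per cell cannot be told apart.

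The level of Hmox1 was 7.10 in saline and 8.05 in PN, a difference of 0.94 (1.92-fold higher in PN). Both levels lay above background. Akr1b8, which reduces reactive aldehydes, had levels of 2.98 and 3.65, a difference of 0.66 (1.59-fold higher). Its saline level was under the background level, and with that level in its place the PN value was 1.30-fold higher. The background level is a median that some receptor genes exceed, so this fold is not a firm lower bound. The difference of Akr1b8 exceeded the cutoff of the table by 0.08 on the log2 scale, the smallest margin of the 5.

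**Figure D1:**
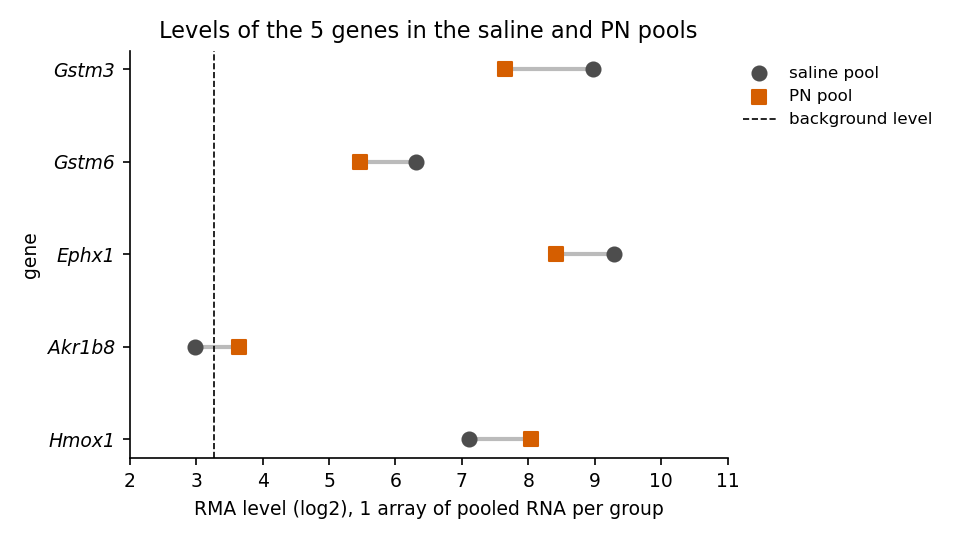
RMA levels (log2) of the 5 genes, 1 array of pooled RNA per group, with saline as grey circles and PN as orange squares; the dashed line is the background level of 3.26. Gstm3, Gstm6 and Ephx1 lie further left in the PN pool, Hmox1 lies further right, and Akr1b8 straddles the background level.

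Of the 5 members 1, Gstm3, was past 2-fold, beside 14.8% of named genes past 2-fold in either direction and 7.2% past 2-fold lower. The 3 lower members stand beside 49.8% of named genes lower, and the 2 higher members beside 50.2% higher. The median difference of the 5 was -0.85. The median over all named genes, 0.59, only marks the upper edge of the gap that the cutoff leaves around 0. Ordered by size, Gstm3 ranked 38 among 872 lower genes, Ephx1 217 and Gstm6 244, and Hmox1 ranked 176 and Akr1b8 603 among 878 higher genes. Gstm3 therefore stood near the far end of its direction, and Akr1b8 near the cutoff.

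To take brightness into account, each member was also set beside genes of like mean level (within 0.5 on the log2 scale). Of 25 such genes that were lower, 2 were lower by more than Gstm3. For Ephx1 the count was 11 of 20 and for Gstm6 33 of 135, so Ephx1 lay near the middle of its neighbours. Of 53 higher genes near the mean level of Hmox1, 19 were higher by more, and of 146 near Akr1b8, 97 were. Absolute differences of the chemosensory receptor genes, themselves cut at 1.5-fold, had a 95th percentile of 1.11. Gstm3 passed this value in size and the other 4 members did not. The largest receptor difference was 1.41, more than that of Gstm3, and 12 of the 133 receptor genes were past 2-fold. The receptor genes were dim, with a median higher level of 3.26, well under the levels of Gstm3. Their percentile is therefore a description and no test of the members.

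**Figure D2:**
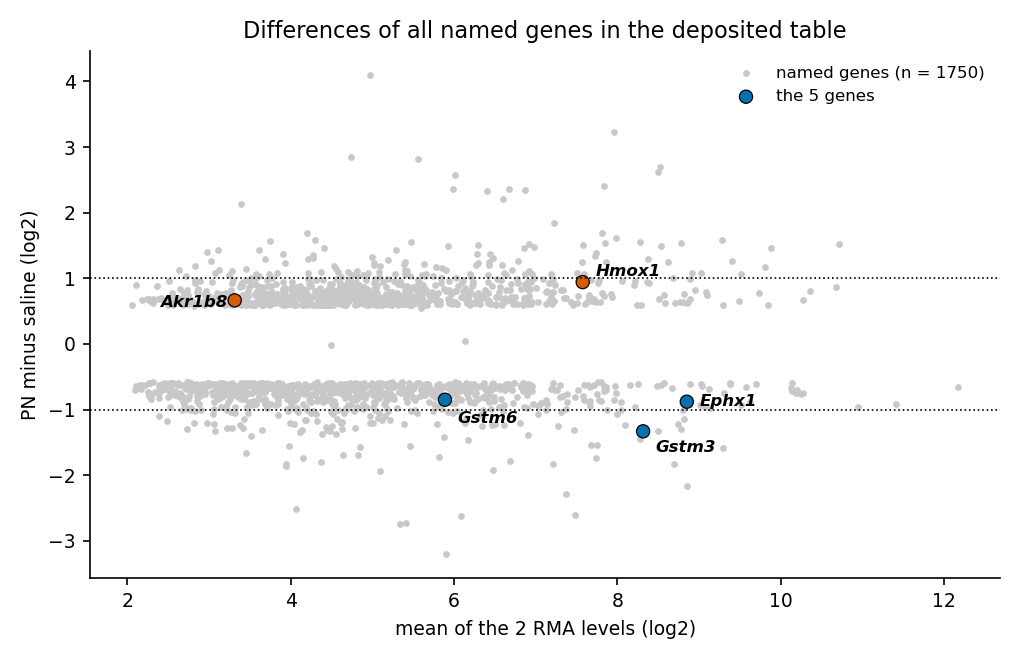
Difference of each of the 1750 named genes (PN minus saline, log2) against the mean of its 2 levels (log2), with the 5 genes as large dots, blue when lower and orange when higher in PN; dotted lines mark 2-fold. The empty band around 0 comes from the cutoff of the deposited table, and the few points in it are means of rows with opposite directions. Gstm3 at -1.33 lies beyond the 2-fold line and the others lie inside it.

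Set against the heme stress gene within the same pair of arrays, the difference of Gstm3 minus that of Hmox1 was -2.27, so the ratio of Gstm3 to Hmox1 was 4.83-fold lower in PN. For Ephx1 the gap was -1.82 (3.54-fold) and for Gstm6 -1.79 (3.46-fold). A shift common to a whole array cancels in these gaps. Akr1b8 went the same way as Hmox1, with a gap of -0.28, or -0.56 with its saline level raised to background. Among the lower members, Gstm3 differed from Gstm6 by -0.48 and Gstm6 from Ephx1 by 0.03. No replicate spread exists to judge either gap. Gstm3, Gstm6 and Ephx1 thus lay on the other side of 0 from Hmox1, and Akr1b8 on the same side.

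With 2 pools, likeness between genes comes down to 1 difference, and the genes nearest in that difference were taken from named genes of at least median level. For Gstm3 these were Arrdc3 at -1.32 and Sult5a1 at -1.38. The neighbours of Gstm6 were Enpp5 at -0.85 and Ccdc162 at -0.85, and those of Ephx1 were Plagl2 at -0.88 and Clpx at -0.88. For Hmox1 they were Qtrt2 and Per1, both at 0.94, and for Akr1b8 Fam169b at 0.67 and Tcf21 at 0.66.

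Of 27 glutathione transferase genes listed, 6 were in the table, 5 lower and 1 higher, beside 49.8% of named genes lower, and their median difference was -0.73. The other 21 had no value, so nothing is shown for the family as a whole. Besides Gstm3 and Gstm6 these were Gsta4, which conjugates the lipid peroxidation product hydroxynonenal, Gstm1 and Gstp1. Gsta4 had levels of 9.67 in saline and 8.93 in PN (1.68-fold lower). Gstm1 had 8.21 and 7.50 (1.63-fold lower), and Gstp1, of the pi class, had 12.5 and 11.8 (1.57-fold lower). Gstp3, from the same pi cluster as Gstp1, went the other way, with 8.00 and 8.59 (1.51-fold higher). In the Gstm cluster of 7 genes the order is Gstm5, Gstm7, Gstm6, Gstm3, Gstm2, Gstm1, Gstm4, and the 3 with a value were all lower. Close paralogs can share probe sequence, so how far each row reports its own gene is uncertain.

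Alpha class transferases, which are abundant in liver, appeared in rows that several genes share and were not counted above. A row shared by Gsta1, Gsta2 and the predicted gene Gm3776 had levels of 8.67 in saline and 7.51 in PN (2.24-fold lower). A row shared by these and Gm10639 had 9.70 and 7.93 (3.41-fold lower). Gm10639, a predicted gene that is not on the transferase list, also had a row of its own, with 7.44 and 5.52, a difference of -1.92. It is named here after its value was seen. Which alpha gene the shared rows report cannot be told.

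Among 42 listed NRF2 targets outside the transferases and glutathione synthesis, 10 had a value. Of these, 7 were lower and 3 higher, with a median of -0.68, beside 49.8% of named genes lower. Ephx1, Hmox1 and Akr1b8 are among them. Cyp2a5, a cytochrome P450 that hydroxylates coumarin, had levels of 6.06 in saline and 4.13 in PN (3.81-fold lower). Cyp2a4 and Cyp2a22, of the same Cyp2a family but outside the list, were higher, with differences of 0.70 and 0.66. Both are named after their values were seen. How far each Cyp2a row reports its own gene is uncertain. Osgin1, an oxidative stress-induced growth inhibitor gene, had 8.60 and 6.87 (3.32-fold lower). Cyp2a5 and Osgin1 were the 2 genes of this list past 2-fold, and both were lower, beside 7.2% of named genes past 2-fold lower.

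The other lower NRF2 targets differed by less than 2-fold. Aox1, aldehyde oxidase, had levels of 8.14 and 7.19 (1.92-fold lower). Nqo1, the quinone reductase that is widely used as a readout of NRF2, had 5.94 and 5.25 (1.61-fold lower). Abcc3, an export pump for glucuronide and glutathione conjugates, had 8.99 and 8.33 (1.59-fold lower), and Ugdh, which makes the donor for glucuronidation and whose window is shown above, had 9.33 and 8.72 (1.52-fold lower). Detoxifying, transporting and donor-supplying genes were thus represented on the lower side.

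The third gene on the higher side, beside Hmox1 and Akr1b8, was Akr1b10, which directly follows Akr1b8 in the genome. Akr1b10 had levels of 3.84 in saline and 4.58 in PN (1.67-fold higher). Both Akr1b genes were dim. Of 17 aldo-keto reductases listed, 5 had a value. With a median of 0.66, 3 were higher and 2 lower, beside 50.2% of named genes higher. Akr1c6, a hydroxysteroid dehydrogenase, had 7.58 and 5.80 (3.44-fold lower), and Akr1c19 had 6.58 and 5.17 (2.66-fold lower). Akr1c18, which inactivates progesterone, had 3.67 and 4.34 (1.59-fold higher). The family was therefore divided, and each of its 3 higher genes had a higher level under 5.18, the median of that level over named genes, while both lower genes were above it.

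A row shared by the peroxiredoxin gene Prdx1, AV051173 and Gm21399 had levels of 7.25 and 6.42 (1.78-fold lower). A row shared by the ferritin light chain gene Ftl1 and Ftl1-ps2 had 4.52 and 3.52 (2.00-fold lower). A row of Ftl1-ps2 alone, named after its value was seen, went the other way, with 4.04 and 5.13, a difference of 1.09. Which gene the shared row reports cannot be told. Prdx1 and Ftl1 are on the NRF2 target list and were not counted there. Of 12 genes that regulate NRF2 or share its binding sites, 1 had a value with 1 symbol. Maff, which encodes a small MAF partner, had 5.52 and 6.13 (1.52-fold higher). The list holds Nfe2l2, which encodes NRF2, and Keap1, and neither had a value.

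Glutathione supply gave little. Of 29 genes of glutathione synthesis, breakdown and recycling 1 had a value. Gpx3, the secreted glutathione peroxidase, had levels of 5.42 and 4.70 (1.65-fold lower). The synthesis genes Gclc, Gclm and Gss had no value, so these data give no reading of them. Of 5 epoxide hydrolase genes, Ephx1 alone had a value.

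UDP-glycosyltransferases, most of which attach glucuronic acid and so form a route beside glutathione conjugation, had a value for 4 of the 21 listed genes. All 4 were lower, with a median of -0.95, beside 49.8% of named genes lower. Ugt3a1, a relative that uses another sugar donor, had levels of 7.23 and 5.99 (2.36-fold lower), Ugt2b35 had 6.58 and 5.75 (1.78-fold lower) and Ugt2b1 had 10.5 and 9.85 (1.62-fold lower). Ugt2b38 had 3.59 and 2.52. Its PN level lay under the background level, and with that level in its place the gene was 1.25-fold lower, again not a firm lower bound. Ugt8a, a family member outside the list and named after its value was seen, had 4.42 and 5.22, a difference of 0.80.

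**Figure D3:**
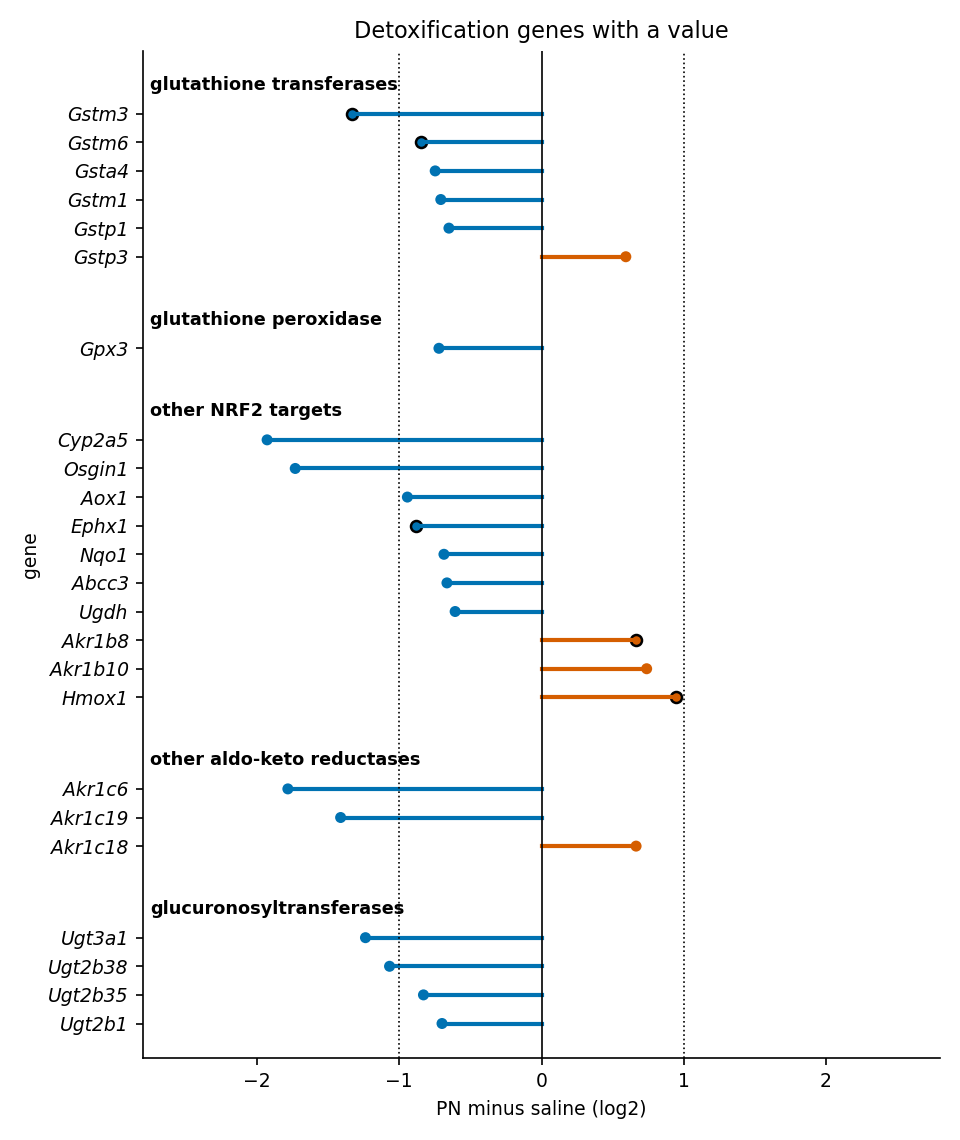
Difference (PN minus saline, log2) of each detoxification gene with a value, grouped by list, with blue for lower and orange for higher in PN, black rings for the 5 genes and dotted lines at 2-fold. In the transferase list 5 of 6 genes and among the listed UDP-glycosyltransferases (headed glucuronosyltransferases) 4 of 4 lie left of 0, while Hmox1, Akr1b8, Akr1b10, Akr1c18 and Gstp3 lie right of it.

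Besides Hmox1 itself, 23 genes of heme synthesis, transport and breakdown were listed. The 3 with a value were higher in PN, with a median of 1.08, beside 50.2% of named genes higher. The shared Ftl1 row, which belongs to the heme list too, was lower, whereas the row of Ftl1-ps2 alone was higher. Alas1, the first and rate-limiting enzyme of heme synthesis, had levels of 8.49 in saline and 9.56 in PN (2.11-fold higher). Spic, a transcription factor of heme-recycling macrophages, had 3.35 and 5.04 (3.21-fold higher). Its saline level lay just above the background level of 3.26, so the size of this fold is uncertain. Cd163, the haptoglobin-hemoglobin scavenger receptor, had 5.79 and 6.59 (1.75-fold higher). The biliverdin reductase genes Blvra and Blvrb, which act on the product of heme oxygenase, had no value.

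Stress-induced genes that often accompany Hmox1 were higher as well. Of 20 listed, 5 had a value, and all 5 were higher and past 2-fold, beside 7.6% of named genes past 2-fold higher. Like the other pathway lists, this list was chosen with earlier results of these data known, so the count is a description. Egr1, an immediate early transcription factor, had levels of 5.69 and 8.04 (5.10-fold higher), and Gadd45g, a growth arrest gene, had 6.97 and 8.65 (3.21-fold higher). Jun, an AP-1 subunit, had 6.13 and 7.58 (2.75-fold higher), Atf3, a stress-induced transcription factor, 5.02 and 6.24 (2.32-fold higher) and Nupr1, a stress-induced nuclear protein, 5.28 and 6.43 (2.23-fold higher). The heat shock genes and the metallothioneins Mt1 and Mt2 of this list had no value.

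Macrophage markers were higher in PN, as Hmox1 was. Of 20 Kupffer cell and macrophage markers 12 were in the table, each of them higher in PN, beside 50.2% of named genes higher. They were higher by 0.62 to 2.36 on the log2 scale, with a median of 0.82. Summed on the linear scale, the 12 levels came to 1497 for saline and 2603 for PN, a ratio of 1.74. Since only markers past the cutoff have a value and all went the same way, that ratio had to exceed 1.5. Marco, a scavenger receptor, was 5.15-fold higher, Vsig4 1.55-fold and Clec4f, a lectin specific to Kupffer cells in mouse, 1.53-fold. Timd4 and Adgre1, 2 further defining markers, had no value. Spic and Cd163 are on both the heme and the macrophage list. The part of macrophages in the difference of Hmox1 was not tested.

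**Figure D4:**
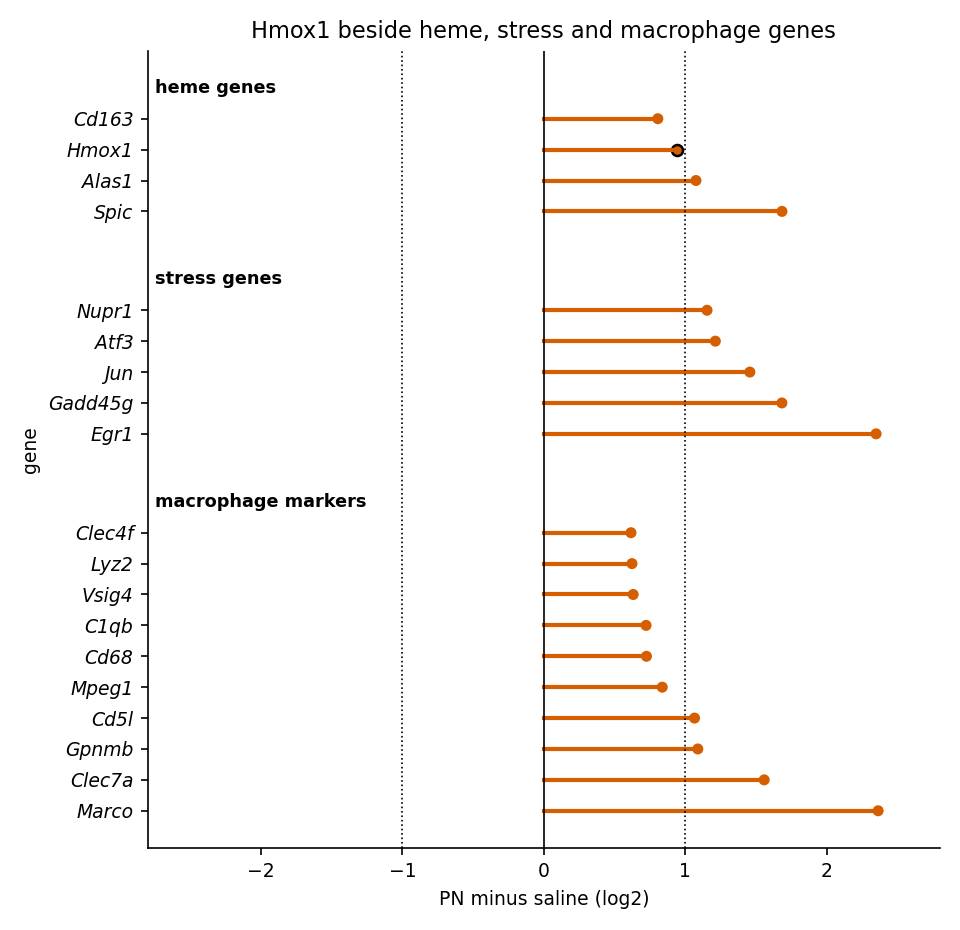
Difference (PN minus saline, log2) of Hmox1 (black ring) beside the heme genes, stress genes and macrophage markers with a value; dotted lines mark 2-fold, and Spic and Cd163, on 2 lists, are drawn among the heme genes. All genes drawn lie right of 0, and the 5 stress genes lie beyond 2-fold.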

How the data were processed

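RNA from 2 pools of mouse liver was measured on 2 arrays, grouped by the mouse group and title in the labels. The deposited values are log2 levels that the authors made with RMA in Affymetrix Expression Console 1.4.0.38, per the submitters' processing notes. Which arrays were normalized together, the genome build and the probe annotation remain not given in the sources used here. The rows were kept by a 1.5-fold cutoff, per the series' design text, and the smallest absolute difference found was 0.585.

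Of the 5082 rows, 1779 had 1 gene symbol, 161 several and 3142 none. Rows of 1 symbol were averaged per gene (22 genes had more than 1 row). Symbols were checked against RefSeq GRCm38.p6 through the Entrez identifier, which matched 1766 rows and changed 0 symbols. Differences are PN minus saline on the log2 scale, with no pseudocount, and a fold is 2 to that power. For Akr1b8 and Ugt2b38, a fold is also given with the level under background raised to the background level. Scripts (Python 3.11.15, pandas 2.3.3) were tested on simulated data with known differences. The number of arrays limits the precision.

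The members and the 9 pathway lists were chosen with earlier results of these data known. In the counts, named genes are the 1750 genes with a row of 1 symbol. The genes described one by one are the members, every listed pathway gene with a row of 1 symbol, and the nearest gene on each side of a member in the order of differences, with examples from shared rows and from the marker lists. Predicted, RIKEN, small RNA and chemosensory receptor genes and genes under median level were left out of those neighbours. The 8 alternatives are given with their effect below.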

Additional observations from a re-analysis of the deposited data

Results flagged for a closer look

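The row shared by Bach2 and its antisense gene Bach2os was picked out because it was left out of the comparisons for carrying 2 symbols and its PN level stood above the saline level and above background. Bach2 is a relative of the repressor gene Bach1, whose product competes for NRF2 binding sites. Its log2 level was 4.86 in saline and 5.47 in PN, which differ by 0.61. Which of the genes the row reports cannot be told.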

How the results depend on the processing

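With 1 array per group no sample could be left out, and no paired analysis was possible because each group has 1 sample and no test was run. A member difference or its gap to Hmox1 was taken as unmoved when it shifted by less than 0.1 on the log2 scale. Subtracting each array's median moved the members by at most 0.07, and no member difference or gap changed sign under the alternatives that gave a value. Each member had 1 row and 0 symbols were changed, so several alternatives could not alter its value. The kept signs are therefore no independent check of the differences. With levels raised to background, Akr1b8 moved to 0.38 and its gap to Hmox1 to -0.56. Akr1b8 has no value among genes of at least median level. Past 2-fold, Gstm3 is the member that stays, and no gap to Hmox1 can be computed.

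Past 2-fold, the counts on the lower side were 1 transferase, 2 NRF2 targets, 2 UDP-glycosyltransferases (1 with levels raised to background), 0 glutathione synthesis and recycling genes and 0 epoxide hydrolases. On the higher side they were 2 heme genes and 0 for transferases, NRF2 targets, NRF2 regulators and aldo-keto reductases. Over all named genes, 7.2% were past 2-fold lower and 7.6% past 2-fold higher. Among genes of at least median level, 1 NRF2 target and 0 aldo-keto reductases were higher. The aldo-keto reductases, 3 higher and 2 lower in the table, thus turn to 0 higher and 2 lower under this filter and past 2-fold. Counting rows with several symbols gave 2 higher NRF2 regulators and 1 lower heme gene. Array signal limits Akr1b8 and Ugt2b38, and the markers Prom1 and Olfm4 described below, each of which had a level under background. It also limits Spic, whose saline level of 3.35 lay just above background.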

Other observations

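Markers of other cell types that liver tissue can hold also had values. Their counts stand beside 50.2% of named genes higher and 49.8% lower. Of 9 neutrophil markers 3 had a value and were higher in the PN pool, with S100a9, a calcium-binding protein of neutrophils, 2.18-fold and S100a8 2.04-fold higher. For lymphocytes and NK cells, 4 of 12 markers were in the table, all higher, at a median of 0.66. Of 10 erythroid markers, Car1 was 1.78-fold and Klf1 1.68-fold lower. Of 13 exocrine pancreas markers 3 were in the table and lower, at a median of -0.91. Of 9 cholangiocyte markers, Epcam and Tspan8 were lower and Prom1 higher, the last from a saline level of 3.21, under the background level. Of 11 stellate cell markers, Lum alone had a value and was 1.91-fold higher. None of 10 endothelial markers had a value.

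Of 10 intestinal epithelium markers 5 had a value, with 4 higher and 1 lower, beside 50.2% of named genes higher. Among the higher ones, Olfm4 had a saline level of 3.07, under the background level. Fabp2, an intestinal fatty acid binding protein gene, had levels of 9.95 and 10.8 (1.75-fold higher). The homeobox genes Cdx2 and Cdx1 went in opposite directions, with differences of 0.88 and -0.80.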
